A study of Homo sapiens with 6 samples.

Results

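PIM1, PIM2 and PIM3 and the serum- and glucocorticoid-regulated kinases SGK1 and SGK3 are serine/threonine kinases that phosphorylate part of the substrate set of AKT. They were followed here as kinases that can stand in for AKT when signalling through PI3K is blocked. The 5 genes were taken by their symbols from 23844 named genes. PolyA RNA had been sequenced once from each of 6 cultures, so every group is 1 library and no group has a replicate. The groups are idelalisib-resistant DAUDI, ibrutinib-resistant DAUDI and DAUDI labelled WT, and idelalisib-resistant DOHH2, ibrutinib-resistant DOHH2 and DOHH2 labelled WT. DAUDI is a Burkitt lymphoma line and DOHH2 represents follicular lymphoma. Idelalisib inhibits the delta form of PI3K and ibrutinib inhibits the kinase BTK, both below the B cell receptor. The drug dose, the time under drug, and whether a resistant culture is 1 clone or a pool were not stated by the labels.

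PIM kinases have no regulatory domain and are active once made, so their amount is set largely by transcription, which JAK-STAT and NF-kB signalling induce, and by turnover. SGK kinases resemble AKT in their catalytic domain and, like AKT, are switched on by PDK1 and mTORC2; SGK3 also binds the endosomal lipid PI3P through a PX domain. Both families can phosphorylate FOXO factors and other AKT substrates, and PIM2 is known in lymphoma and myeloma for sustaining cap-dependent translation and survival.

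Values are FPKM, that is fragments divided by the length of the transcript and by the mapped total, summed over the isoforms of a gene. FPKM are per length, so levels can be set beside each other between genes. All 5 kinases reached 1 FPKM in at least 1 library, the filter that 12337 genes passed. Read counts were not used and absolute depth is unknown; the coverage obtained per FPKM lay between 0.935 and 1.42 times that of the WT-labelled DAUDI library, with the ibrutinib-resistant DAUDI library highest. Before any comparison with the WT-labelled libraries, their place in the data has to be given. Across 12186 genes with an isoform of at least 300 nt, the WT-labelled DOHH2 and DAUDI libraries correlated at r = 0.991, while each correlated with the resistant libraries of its own line at 0.722 to 0.737. The resistant pair correlated at 0.980 within DAUDI and 0.992 within DOHH2, and at 0.838 to 0.856 between the lines. The WT-labelled libraries thus resembled each other and not their own line, and every contrast of resistant against WT-labelled cells holds this difference too; its part in the results was not tested. All 8 B cell markers, MS4A1, CD79A, CD79B and PAX5 among them, reached 1 FPKM in both kinds of library, and of 8 T and NK cell markers 2 did so in a resistant and 1 in a WT-labelled library. CD3D was listed at 0 throughout, CD3E measured 1.32 and 2.55 FPKM in idelalisib- and ibrutinib-resistant DOHH2 against 0 in both WT-labelled libraries, and CD4 measured 0 to 1.95 FPKM in resistant libraries against 3.51 and 7.30 FPKM in WT-labelled DAUDI and DOHH2. Summed myeloid markers ran from 2.01 to 24.3 FPKM in resistant and from 16.3 to 19.2 FPKM in WT-labelled libraries, with LYZ at 15.0 and 13.0 FPKM in idelalisib- and ibrutinib-resistant DAUDI and under 1 FPKM elsewhere, and CD68 highest in WT-labelled cells. The plasma cell markers differed in both directions: XBP1 stood at 307 and 431 FPKM in idelalisib- and ibrutinib-resistant DAUDI against 40.8 FPKM in WT-labelled DAUDI, and at 68.3 and 74.5 FPKM in these states of DOHH2 against 62.7 FPKM in WT-labelled DOHH2, while PRDM1 stood at 0.0249 to 1.35 FPKM in resistant libraries, against 71.7 and 66.7 FPKM in WT-labelled DAUDI and DOHH2; the part of these markers in the results was not tested.

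Coordinates of the members are those of hg19, the build named in the submitters' processing notes. PIM1 is at chr6:37137922-37143204, PIM2 at chrX:48770459-48776413, PIM3 at chr22:50354143-50357720 and SGK1 at chr6:134490384-134639196. The 250 bases before the RefSeq start (GRCh38.p14) are given for PIM1, PIM2 and SGK1, in the direction of transcription, because these are the members that stood lower in resistant cells; capitals mark matches to the motifs searched on both strands.
PIM1, chr6:37169902-37170151, plus strand: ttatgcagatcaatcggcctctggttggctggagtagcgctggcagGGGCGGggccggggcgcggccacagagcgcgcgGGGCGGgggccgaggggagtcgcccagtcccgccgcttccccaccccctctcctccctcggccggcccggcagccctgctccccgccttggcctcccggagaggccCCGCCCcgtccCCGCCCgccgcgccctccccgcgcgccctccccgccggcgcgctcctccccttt
PIM2, chrX:48919025-48919274, minus strand: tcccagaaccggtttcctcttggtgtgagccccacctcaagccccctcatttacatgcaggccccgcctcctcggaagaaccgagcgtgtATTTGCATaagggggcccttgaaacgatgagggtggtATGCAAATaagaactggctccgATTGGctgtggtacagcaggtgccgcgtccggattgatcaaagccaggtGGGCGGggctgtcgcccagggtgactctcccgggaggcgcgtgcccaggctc
SGK1, chr6:134174867-134175116, minus strand: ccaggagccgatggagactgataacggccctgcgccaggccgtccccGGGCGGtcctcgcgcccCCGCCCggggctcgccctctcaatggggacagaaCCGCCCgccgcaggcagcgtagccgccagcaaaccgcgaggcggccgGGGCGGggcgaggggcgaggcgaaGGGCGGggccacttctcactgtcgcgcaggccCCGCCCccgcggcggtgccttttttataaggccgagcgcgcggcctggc
The PIM2 window holds the octamer ATGCAAAT, the motif of the B cell factors OCT2 and OCT1, 2 times, once on each strand, at 160 to 153 and 123 to 116 bases before the start. Of 35114 promoter windows in the table, 1.63% hold at least 1 octamer. PIM2 also has 1 CCAAT box (CCAAT, in 32.0% of windows) and 1 GC box (GGGCGG, in 42.6%). PIM1 has 4 GC boxes and SGK1 has 6, and neither has an octamer or a CCAAT box. PIM3, whose window is not printed, has 4 GC boxes. The start used for PIM3 lies 259 bases from its start in the GENCODE 29 annotation, more than the length of the window. For SGK1, 1 of 3 windows was searched, the nearest to its GENCODE 29 start. The STAT motif TTCNNNGAA, the E-box CACGTG, the FOXO motif GTAAACA, the glucocorticoid response element and the NF-kB consensus had no match in these 4 windows; they occur in 6.57%, 6.35%, 2.98%, 0.00285% and 9.96% of all windows, in that order. GC content was 79.6% for PIM1, 61.2% for PIM2, 82% for PIM3 and 76% for SGK1, beside a median of 58% over all windows.

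PIM2, a kinase that is prominent in B lineage cells, was the most abundant of the 5 in every library. It measured 88.5 FPKM in idelalisib-resistant, 89.3 FPKM in ibrutinib-resistant and 232 FPKM in WT-labelled DAUDI. In DOHH2 it measured 49.3 FPKM in idelalisib-resistant, 49.8 FPKM in ibrutinib-resistant and 256 FPKM in WT-labelled cells. The resistant libraries of a line were nearly equal, all 4 lay below both WT-labelled libraries, and resistant DOHH2 lay below resistant DAUDI. Despite these gaps, PIM2 stayed an abundant transcript: 7.85% of the genes tested were at or above it in idelalisib-resistant DOHH2, where it ranked lowest, against 1.33% in WT-labelled DOHH2.

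PIM1, the STAT-induced member of the family that was found as a proviral integration site in mouse lymphoma, measured 26.6, 35.1 and 51.1 FPKM in idelalisib-resistant, ibrutinib-resistant and WT-labelled DAUDI. In DOHH2 the same states gave 16.9, 12.2 and 59.1 FPKM. All resistant libraries again lay below the WT-labelled ones, more so in DOHH2, and the drugs stood in opposite order in the lines. PIM3, the third member, went the other way. Levels of PIM3 were 19.5 FPKM in idelalisib-resistant, 18.3 FPKM in ibrutinib-resistant and 11.7 FPKM in WT-labelled DAUDI, and 19.4, 17.4 and 10.9 FPKM in the same states of DOHH2. The 4 resistant libraries lay within a narrow band above both WT-labelled libraries, with no visible gap between the lines.

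SGK1, a kinase induced by glucocorticoids, serum and osmotic stress and quickly degraded, measured 3.15 FPKM in idelalisib-resistant, 1.94 FPKM in ibrutinib-resistant and 14.6 FPKM in WT-labelled DAUDI. In DOHH2 it measured 0.561 FPKM in idelalisib-resistant and 0.270 FPKM in ibrutinib-resistant cells, against 15.6 FPKM in WT-labelled cells. Resistant DOHH2 was thus under 1 FPKM, with a coverage of 2.88 in idelalisib-resistant and 1.24 in ibrutinib-resistant cells against 82.3 in WT-labelled DOHH2, so that the difference between the low values is poorly resolved. Of the 4 SGK1 isoforms, 1 of 2407 nt carried between 97.4% and all of the SGK1 FPKM in each library.

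SGK3, the member with the PX domain, was listed at 3.17 FPKM in idelalisib-resistant and 5.61 FPKM in ibrutinib-resistant DAUDI, and at 3.64e-05 FPKM in WT-labelled DAUDI. In DOHH2 it was listed at 0.367 FPKM in idelalisib-resistant, 7.39e-05 FPKM in ibrutinib-resistant and 8.95e-06 FPKM in WT-labelled cells. Only the resistant DAUDI libraries were above 1 FPKM, so SGK3 passed the filter through them alone. The near-zero listings allow no ratio. SGK3 (hg19 chr8:67624653-67774257) shares its exons with the readthrough transcript C8orf44-SGK3 (chr8:67579787-67774257), so the split between both symbols is an estimate and the SGK3 value is uncertain. The readthrough measured 1.08, 1.54 and 0.738 FPKM in idelalisib-resistant, ibrutinib-resistant and WT-labelled DAUDI, and 1.79, 1.97 and 0.774 FPKM in these states of DOHH2. Summed, the locus measured 4.25, 7.15 and 0.738 FPKM in DAUDI and 2.16, 1.97 and 0.774 FPKM in DOHH2. SGK3 took 74.6% and 78.4% of the sum in idelalisib- and ibrutinib-resistant DAUDI, against 0.00493% in WT-labelled DAUDI. In DOHH2 it took 17.0% in idelalisib-resistant and 0.00375% in ibrutinib-resistant cells, against 0.00116% in WT-labelled cells. The locus sum was above the WT-labelled level in all 4 resistant libraries and highest in resistant DAUDI, where the transcript without the upstream gene was the main one. SGK2, the remaining SGK gene, stayed between 0.0492 and 0.603 FPKM and did not pass the filter.

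**Figure D1:**
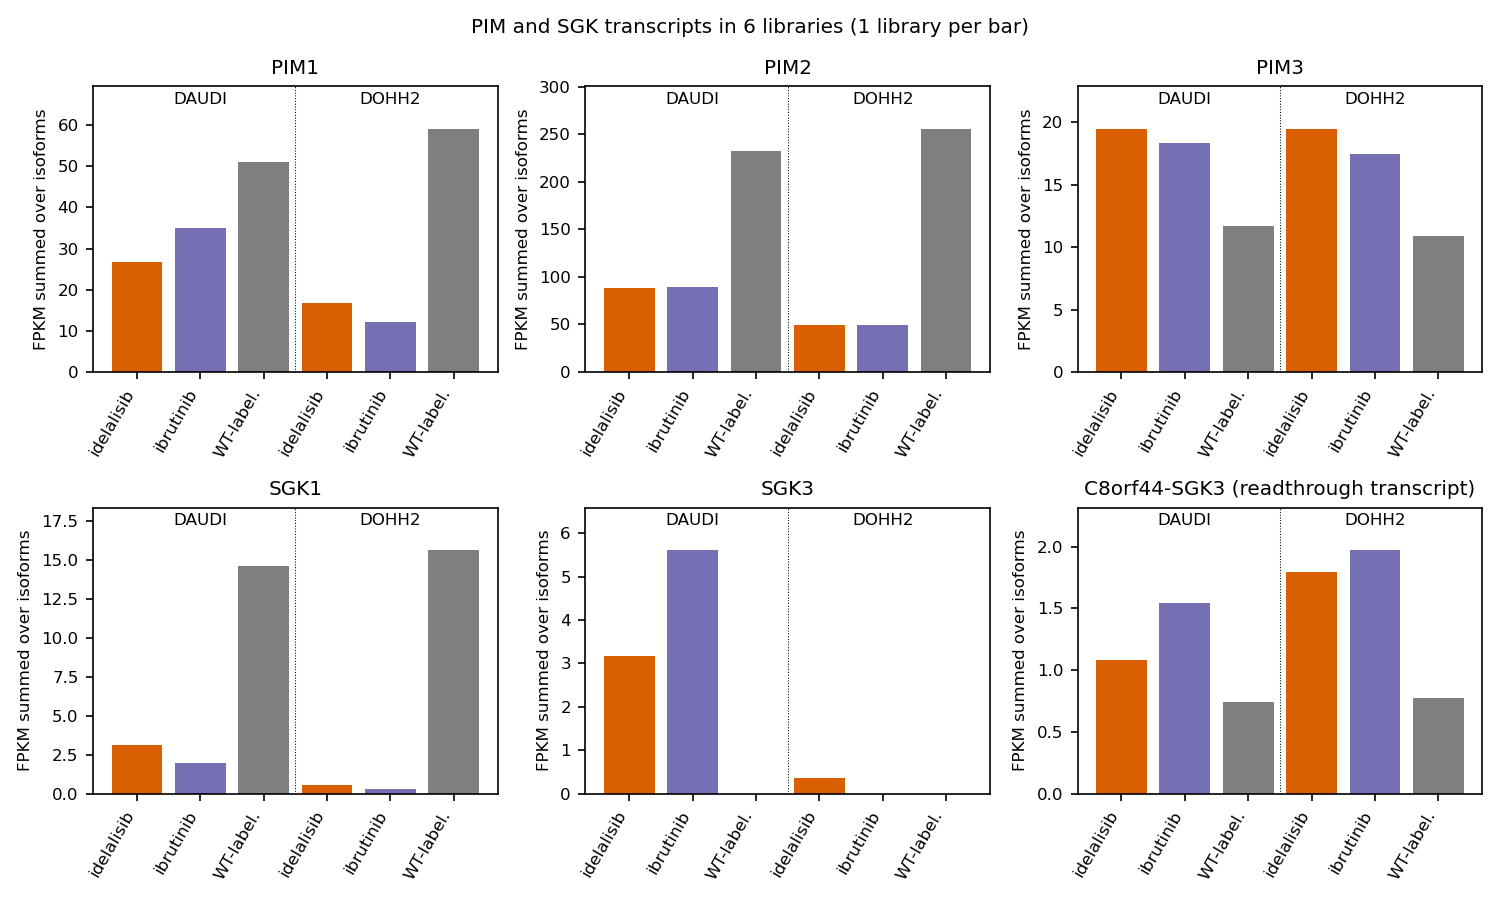
FPKM of PIM1, PIM2, PIM3, SGK1, SGK3 and, for the shared locus, C8orf44-SGK3 in the 6 libraries, 1 panel per gene, with each bar 1 library and no error bar because each group is 1 library. PIM2, PIM1 and SGK1 are lowest in resistant DOHH2 and highest in WT-labelled cells, and PIM3 is higher in the resistant libraries.

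**Figure D2:**
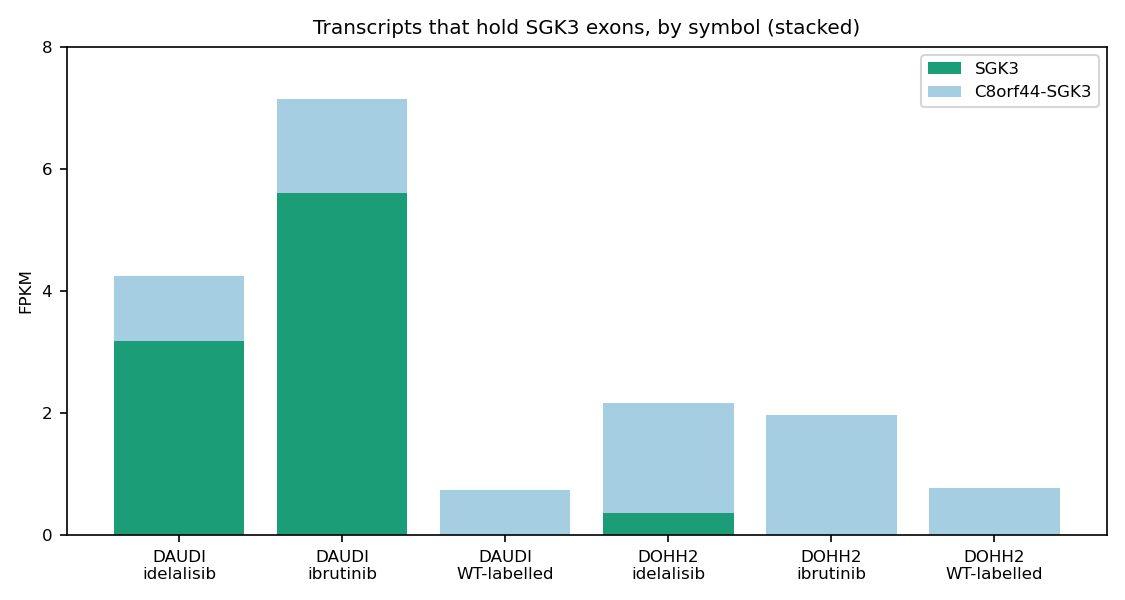
FPKM at the SGK3 locus per library, stacked by symbol (SGK3 and the readthrough C8orf44-SGK3), 1 bar per library. The sum is 4.25 and 7.15 FPKM in resistant DAUDI, 2.16 and 1.97 FPKM in resistant DOHH2, and 0.738 and 0.774 FPKM in WT-labelled DAUDI and DOHH2, and SGK3 itself is visible mainly in resistant DAUDI.

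The order of the members differed by line and state. From high to low it was PIM2, PIM1, PIM3, SGK3 and SGK1 in both resistant DAUDI libraries, PIM2, PIM3, PIM1, SGK1 and SGK3 in both resistant DOHH2 libraries, and PIM2, PIM1, SGK1, PIM3 and SGK3 in both WT-labelled libraries. With 1 library per group there is no spread to set beside neighbours in this order. PIM1 and PIM3 were close in idelalisib-resistant DOHH2, at 16.9 and 19.4 FPKM, as were SGK3 and SGK1 in idelalisib-resistant DAUDI, at 3.17 and 3.15 FPKM. The 3 PIM genes summed to 135 and 143 FPKM in idelalisib- and ibrutinib-resistant DAUDI, against 295 FPKM in WT-labelled DAUDI. In DOHH2 the sum was 85.6 FPKM in idelalisib-resistant and 79.5 FPKM in ibrutinib-resistant cells, against 326 FPKM in WT-labelled cells. PIM3 supplied 14.5% and 12.9% of it in idelalisib- and ibrutinib-resistant DAUDI, against 3.96% in WT-labelled DAUDI. In DOHH2 its share was 22.7% and 21.9% in idelalisib- and ibrutinib-resistant cells, against 3.34% in WT-labelled cells.

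Beside AKT1 and AKT2, among the kinases these genes are set against, PIM transcripts summed to more in every library. AKT1 measured 26.1, 23.6 and 21.2 FPKM in idelalisib-resistant, ibrutinib-resistant and WT-labelled DAUDI, and 27.5, 25.4 and 17.7 FPKM in these states of DOHH2. AKT2 measured 15.0, 17.6 and 20.05 FPKM in DAUDI and 12.6, 11.3 and 20.5 FPKM in DOHH2, in the same order of states. The sum of PIM over the sum of AKT1 and AKT2 was 3.28 and 3.47 in idelalisib- and ibrutinib-resistant DAUDI, against 7.14 in WT-labelled DAUDI. In DOHH2 this ratio was 2.14 and 2.16 in idelalisib- and ibrutinib-resistant cells, against 8.52 in WT-labelled cells. For SGK1 with the SGK3 locus sum, the ratio to AKT1 and AKT2 was 0.180 and 0.221 in DAUDI and 0.0678 and 0.0610 in DOHH2 for idelalisib- and ibrutinib-resistant cells, against 0.372 in WT-labelled DAUDI and 0.430 in WT-labelled DOHH2. As a sum, neither family was higher relative to AKT1 and AKT2 in any resistant library than in the WT-labelled library of its line. Within these sums PIM3 and the SGK3 locus were above their WT-labelled level in all 4 resistant libraries. The sum of AKT1 and AKT2 differed little between states. It was 41.0, 41.1 and 41.3 FPKM in idelalisib-resistant, ibrutinib-resistant and WT-labelled DAUDI, and 40.1, 36.7 and 38.2 FPKM in these states of DOHH2. Ratios of PIM3 alone and of the SGK3 locus alone to this sum were not taken.

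Within a line, differences were taken on log2(FPKM + 1), and a gene was counted where it differed by at least 1; with single libraries there is no test, and this scale understates changes of low genes. In idelalisib-resistant against WT-labelled DAUDI, 3 of 5 members were counted, beside 31.1% of all genes. These were PIM2 at -1.38 and SGK1 at -1.92, both lower, and SGK3 at 2.06, higher; PIM1 (-0.91) and PIM3 (0.69) did not reach 1. Ibrutinib-resistant against WT-labelled DAUDI gave the same 3, with 34.9% of all genes counted: PIM2 -1.37, SGK1 -2.41 and SGK3 2.72, while PIM1 was at -0.53 and PIM3 at 0.61. In idelalisib-resistant against WT-labelled DOHH2 the 3 counted were PIM1 at -1.75, PIM2 at -2.35 and SGK1 at -3.41, beside 31.8% of all genes. PIM3 was at 0.78 and SGK3 at 0.45. Ibrutinib-resistant against WT-labelled DOHH2 counted PIM1 at -2.19, PIM2 at -2.34 and SGK1 at -3.71, beside 30.6% of all genes, with PIM3 at 0.64 and SGK3 with no difference at 2 decimals. The comparisons within a line share their WT-labelled library. In all 4 of them, PIM2 and SGK1 were lower by more than 1 and PIM3 was higher by less than 1. The differences of PIM1, PIM2 and SGK1 were larger in DOHH2 than in DAUDI, while SGK3 was counted in DAUDI and not in DOHH2. With a pseudocount of 0.1 in place of 1, however, SGK3 was also counted in idelalisib-resistant DOHH2 (2.22). SGK3 passed the filter only through the resistant DAUDI libraries, so its count there gives no separate support for a difference. Summed with its readthrough, the locus was at 1.60 and 2.23 in idelalisib- and ibrutinib-resistant against WT-labelled DAUDI. In DOHH2 it was at 0.83 and 0.74 in these states. For all of these values bulk RNA cannot tell fewer cells carrying a transcript from less transcript per cell.

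Between the drugs no member differed by 1. Ibrutinib- against idelalisib-resistant DAUDI gave 0 of 5, with 3.50% of all genes counted, and values of 0.38 for PIM1, 0.01 for PIM2, -0.08 for PIM3, -0.49 for SGK1 and 0.66 for SGK3. Ibrutinib- against idelalisib-resistant DOHH2 gave 0 of 5, with 1.08% of all genes counted, and values of -0.44 for PIM1, 0.02 for PIM2, -0.15 for PIM3, -0.30 for SGK1 and -0.45 for SGK3. PIM1 and SGK3 had opposite signs in the lines. The WT-labelled DOHH2 library set against the WT-labelled DAUDI library gave 0 of 5, with 1.09% of all genes counted, and no member differed by more than 0.21.

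**Figure D3:**
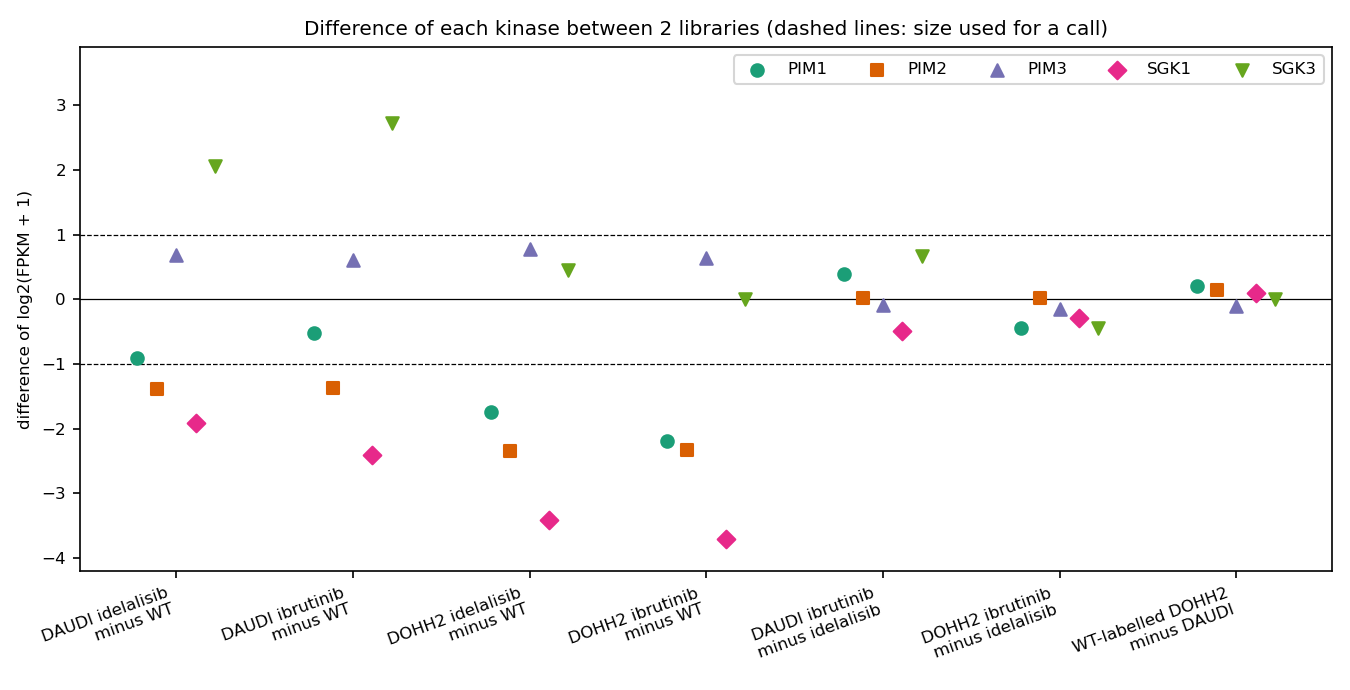
Differences of log2(FPKM + 1) for the 5 kinases in the 7 comparisons of single libraries, first-named minus second-named group, with 1 point per gene. PIM1, PIM2 and SGK1 lie below 0 and PIM3 lies above 0 in the 4 comparisons of resistant with WT-labelled cells, and the points of the other 3 comparisons lie within 1 of 0.

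A test across all genes was run with the labelled line as a block (limma, Benjamini-Hochberg adjustment over 12337 genes). The labelled lines did not act as pairs between resistant and WT-labelled cells. Across genes, the difference between the lines correlated at -0.01 between idelalisib and WT and at -0.06 between ibrutinib and WT. PIM2 and SGK1 were lower in both kinds of resistant cells than in WT-labelled cells, and PIM3 was higher in idelalisib-resistant cells. For idelalisib-resistant against WT-labelled cells 3 of 5 members passed an adjusted p of 0.05, beside 19.6% of all genes. The difference was -1.87 ± 0.31 (SE; 2 libraries against 2) for PIM2 with adjusted p 0.0304, -2.66 ± 0.45 for SGK1 with adjusted p 0.0312, and 0.74 ± 0.16 for PIM3 with adjusted p 0.0483. PIM1 was at -1.33 ± 0.44 with adjusted p 0.113. For ibrutinib-resistant against WT-labelled cells 2 of 5 passed, beside 19.7% of all genes. PIM2 was at -1.85 ± 0.31 with adjusted p 0.0302, and SGK1 at -3.06 ± 0.45 with adjusted p 0.0237. PIM1 missed the threshold at -1.36 ± 0.44 (adjusted p 0.107), as did PIM3 at 0.62 ± 0.16 (adjusted p 0.0667). SGK3 was at 1.26 ± 0.71 and 1.36 ± 0.71 for idelalisib and ibrutinib, with adjusted p 0.278 and 0.242; with the readthrough added the locus was at 1.21 and 1.49, with adjusted p 0.121 and 0.0831. Leaving out any 1 of the 4 resistant libraries left no gene past the threshold, with adjusted p for PIM2 of 0.0898 to 0.266 (idelalisib) and 0.108 to 0.183 (ibrutinib). For SGK1 it was 0.0970 to 0.253 and 0.0910 to 0.179. The calls of PIM2 and SGK1 held without either WT-labelled library; the PIM3 call was lost without any 1 of the 6 libraries (adjusted p 0.0786 to 0.357). With no filter on low values PIM2 missed the threshold (adjusted p 0.115 for idelalisib and 0.114 for ibrutinib), as did SGK1 (0.124 and 0.101), and with a pseudocount of 0.1 SGK1 missed it for idelalisib (0.0563). With median-of-ratios scaling PIM3 missed it for idelalisib (0.61, adjusted p 0.0595). Without the line as a block SGK1 missed the threshold for idelalisib (adjusted p 0.0514) and PIM3 passed it for ibrutinib (0.0432).

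In the same fit, for idelalisib- and ibrutinib-resistant against WT-labelled cells, AKT1 was at 0.44 ± 0.18 and 0.32 ± 0.18, and AKT2 at -0.53 ± 0.22 and -0.49 ± 0.22, none past the threshold (adjusted p 0.159, 0.264, 0.169 and 0.192). For ibrutinib- against idelalisib-resistant cells of both lines, 0 of 5 members passed (0 also at an unadjusted p under 0.05), beside 0.00811% of all genes (1 gene; 71 genes had an unadjusted p under 0.05). The 95% intervals of this difference were -1.25 to 1.19 for PIM1, -0.85 to 0.88 for PIM2, -0.55 to 0.32 for PIM3, -1.64 to 0.85 for SGK1 and -1.86 to 2.08 for SGK3. A difference of 1 between the drugs on this scale is outside the interval for PIM2 and PIM3 but not for PIM1, SGK1 or SGK3. These intervals rest on a spread pooled over all 6 libraries, the WT-labelled ones included. Across genes, the difference between the lines correlated at 0.762 between idelalisib and ibrutinib, but at -0.01 and -0.06 between these states and WT. The intervals and the count of genes therefore do not measure the spread between the drugs alone.

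The resistant libraries alone can be compared without the WT-labelled ones. In resistant DOHH2 against resistant DAUDI (4 libraries, limma with the drug as a block), 2 of 5 members passed, beside 15.5% of all genes. Both were lower in DOHH2: PIM2 differed by -0.83 ± 0.11 (SE) with adjusted p 0.0410, and SGK1 by -1.31 ± 0.11 with adjusted p 0.0199. SGK3 was at -2.17 ± 0.34 with adjusted p 0.0518, and its locus sum at -1.10 with adjusted p 0.0979. PIM1 was at -1.04 ± 0.27 (adjusted p 0.109). PIM3 was at -0.04 ± 0.13 (adjusted p 0.871), with an interval of -0.47 to 0.40. PIM1, PIM2, SGK1 and SGK3 were thus lower in both resistant DOHH2 libraries than in both resistant DAUDI libraries, and 2 of these differences passed. The PIM2 call was lost without either DOHH2 library (adjusted p 0.108 and 0.109). The SGK1 call was lost without any 1 of the 4 libraries (adjusted p 0.0583 to 0.174). With no filter both calls were lost (0.151 for PIM2 and 0.177 for SGK1). Without the drug as a block SGK3 passed as well (0.0220). However, SGK3 met the filter of 1 FPKM only through the resistant DAUDI libraries, where it is high. The comparison of DOHH2 with DAUDI therefore gives no separate support for a difference of SGK3.

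**Figure D4:**
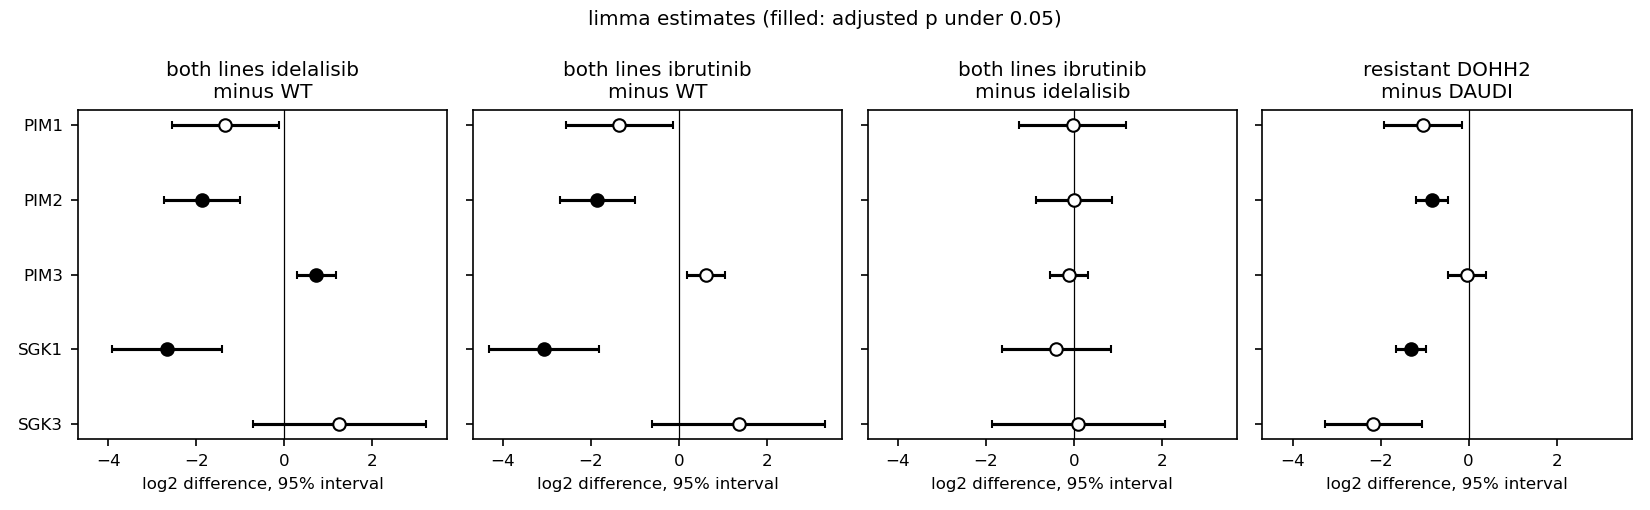
Differences of log2(FPKM + 1) with 95% intervals, not adjusted for the number of genes, from limma for the 5 kinases in the contrasts of state over both lines (6 libraries) and of resistant DOHH2 minus DAUDI (4 libraries); filled points have an adjusted p under 0.05. PIM2 and SGK1 are filled and below 0 in all contrasts but ibrutinib minus idelalisib, where every interval spans 0, and PIM3 is filled and above 0 for idelalisib minus WT.

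Genes upstream of the PIM kinases held large differences of either sign. Here and below, rose and fell mean higher and lower in resistant than in WT-labelled cells. Of 14 JAK-STAT and NF-kB genes, all of them tested, 1 rose and 3 fell in each contrast of resistant with WT-labelled cells (limma, adjusted p under 0.05; over all genes 9.19% rose and 10.4% fell for idelalisib, and 9.99% and 9.67% for ibrutinib). The median difference of the list was -0.30 for idelalisib and -0.19 for ibrutinib, beside 0.09 and 0.14 over all genes. STAT3, a transcription factor that drives PIM1 in response to cytokines, measured 8.01 and 12.3 FPKM in idelalisib- and ibrutinib-resistant DAUDI, against 132 FPKM in WT-labelled DAUDI. In DOHH2 it measured 10.5 and 11.7 FPKM in these states, against 110 FPKM in WT-labelled cells (adjusted p 0.00540 and 0.00653). JAK2, a kinase upstream of it but not the only such kinase in the list, measured 0.120 to 1.59 FPKM in the resistant libraries. It measured 17.2 and 12.8 FPKM in WT-labelled DAUDI and DOHH2 (adjusted p 0.0213 and 0.0230). STAT5B, a second STAT able to induce PIM1, rose to 26.8 to 62.5 FPKM in the resistant libraries, against 9.37 and 6.80 FPKM in WT-labelled DAUDI and DOHH2 (adjusted p 0.0474 and 0.0392). Resistant lines differed in STAT5A, which stood at 11.7 and 13.5 FPKM in resistant DOHH2 against 1.03 and 1.24 FPKM in resistant DAUDI (adjusted p 0.0143). It measured 2.14 and 2.36 FPKM in WT-labelled DAUDI and DOHH2.

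Among 11 cytokine response genes that STAT factors induce alongside PIM1, 9 were tested; 1 rose and 3 fell in each contrast with WT-labelled cells, where 9.19% and 10.4% of all genes did for idelalisib and 9.99% and 9.67% for ibrutinib. The median was -0.87 for idelalisib and -0.86 for ibrutinib, beside 0.09 and 0.14 over all genes. CCND2, a D-type cyclin, stood at 0.0252 to 0.689 FPKM in the resistant libraries, against 92.7 and 127 FPKM in WT-labelled DAUDI and DOHH2 (adjusted p 0.00428 and 0.00425). BATF, an AP-1 family factor, stood at 0 to 1.08 FPKM, against 64.2 and 58.0 FPKM in WT-labelled DAUDI and DOHH2 (adjusted p 0.00465 and 0.00493). SOCS3, the feedback inhibitor of JAK-STAT3 signalling, was listed at 0 in 3 resistant libraries and at 0.00773 FPKM in ibrutinib-resistant DAUDI, against 25.5 and 32.9 FPKM in WT-labelled DAUDI and DOHH2. BCL6, the germinal centre repressor, rose to 44 and 50.9 FPKM in idelalisib- and ibrutinib-resistant DAUDI, against 7.76 FPKM in WT-labelled DAUDI, and to 121 and 110 FPKM in these states of DOHH2, against 9.07 FPKM in WT-labelled DOHH2 (adjusted p 0.0163 and 0.0164). Between the resistant lines 2 of the 9 were higher and 4 lower in DOHH2, beside 7.04% and 8.48% of all genes. SOCS1, another feedback inhibitor, was at 0.293 and 0.240 FPKM in resistant DOHH2 against 6.02 and 8.77 FPKM in resistant DAUDI. It measured 3.53 and 4.13 FPKM in WT-labelled DAUDI and DOHH2.

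Genes that encode PIM substrates, 20 in number and all tested, had 3 that rose and 2 that fell for idelalisib (9.19% and 10.4% of all genes) and 2 that rose and 2 that fell for ibrutinib (9.99% and 9.67% of all genes), which is near the share over all genes. The medians were 0.16 and 0.36, beside 0.09 and 0.14 over all genes. AKT1S1, which encodes the mTORC1 inhibitor PRAS40, fell to 6.87 to 10.4 FPKM in the resistant libraries, against 35.0 and 38.5 FPKM in WT-labelled DAUDI and DOHH2 (adjusted p 0.0163 and 0.0175). RUNX1, a haematopoietic transcription factor, fell to 6.59 to 8.82 FPKM, against 21.0 and 23.1 FPKM in the WT-labelled libraries (adjusted p 0.0237 and 0.0248). FOXO3, a pro-apoptotic transcription factor that AKT, PIM and SGK can all inactivate, rose to 6.77 to 8.68 FPKM, against 1.62 and 1.83 FPKM in the WT-labelled libraries (adjusted p 0.0169 and 0.0144). CXCR4, a chemokine receptor that PIM1 can phosphorylate, measured 64.1 and 60.6 FPKM in idelalisib- and ibrutinib-resistant DOHH2 against 200 and 177 FPKM in these states of DAUDI (adjusted p 0.0165). In WT-labelled DAUDI and DOHH2 it measured 132 and 181 FPKM.

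Of 13 genes that activate SGK kinases, 10 were tested; 1 rose and 1 fell for idelalisib, a share near that of all genes (9.19% and 10.4%), and 0 rose and 1 fell for ibrutinib (9.99% and 9.67% of all genes). The medians were -0.01 and 0.04, beside 0.09 and 0.14 over all genes. At an unadjusted p under 0.05 were 2 of the 10 for idelalisib and 3 for ibrutinib, beside 4646 and 4698 of all 12337 genes. PIK3C3, the catalytic subunit of the class III PI3K that makes the PI3P bound by SGK3, fell to 5.52 to 7.63 FPKM in the resistant libraries, against 22.7 and 21.4 FPKM in WT-labelled DAUDI and DOHH2 (adjusted p 0.0187 and 0.0216). MLST8, a subunit shared by both mTOR complexes, rose for idelalisib (0.97 ± 0.20, adjusted p 0.0472) and was at 0.83 ± 0.20 for ibrutinib (adjusted p 0.0630). RICTOR, the subunit that defines mTORC2, was at 0.57 ± 0.28 and 0.64 ± 0.28 (adjusted p 0.222 and 0.180). Between the resistant lines 0 of the 10 passed (limma), beside 15.5% of all genes. At an unadjusted p under 0.05 was 1 of the 10, beside 4438 of all 12337 genes.

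SGK1 is itself a glucocorticoid and osmotic response gene. Of 13 such genes listed, 12 were tested. Against WT-labelled cells 0 passed for either drug (limma), beside 19.6% of all genes for idelalisib and 19.7% for ibrutinib. At an unadjusted p under 0.05 were 3 of the 12 for idelalisib and 5 for ibrutinib, beside 4646 and 4698 of all 12337 genes. The medians were 0.08 and 0.19, beside 0.09 and 0.14 over all genes. In resistant DOHH2 against resistant DAUDI 2 were higher and 3 lower, beside 7.04% and 8.48% of all genes. TSC22D3, the glucocorticoid-induced leucine zipper gene, measured 3.20 and 2.33 FPKM in idelalisib- and ibrutinib-resistant DOHH2 against 128 and 116 FPKM in these states of DAUDI (adjusted p 0.0119), with 3.48 and 3.08 FPKM in WT-labelled DOHH2 and DAUDI. AKR1B1, the aldose reductase induced by osmotic stress, measured 55.9 and 52.0 FPKM in idelalisib- and ibrutinib-resistant DOHH2, against 0 and 0.0167 FPKM in these states of DAUDI (adjusted p 0.0119). FKBP5, a chaperone of the glucocorticoid receptor and its target, was at 22.3 and 23.5 FPKM in resistant DOHH2 against 67.6 and 54.6 FPKM in resistant DAUDI (adjusted p 0.0329). Other genes of the list are not named, so those named do not stand for all of it. Of the genes named, TSC22D3 and FKBP5 were lower in resistant DOHH2 than in resistant DAUDI along with SGK1, and AKR1B1 was higher. These genes parted in idelalisib- and ibrutinib-resistant against WT-labelled DAUDI, on log2(FPKM + 1). There SGK1 was at -1.92 and -2.41 and AKR1B1 at -4.08 and -4.05. TSC22D3 was at 4.98 and 4.84, and FKBP5 at 0.07 and -0.23.

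SGK substrates and the genes of SGK turnover numbered 19, all tested, of which 4 rose and 3 fell for each drug against WT-labelled cells. Over all genes 9.19% rose and 10.4% fell for idelalisib, and 9.99% and 9.67% for ibrutinib. The medians were 0.16 and 0.25, beside 0.09 and 0.14 over all genes. NEDD4, a ubiquitin ligase, rose to 3.05 to 10 FPKM in the resistant libraries, against 0.302 and 0.378 FPKM in WT-labelled DAUDI and DOHH2 (adjusted p 0.0392 and 0.0254). FOXO1, which SGK and AKT exclude from the nucleus, rose to 22.1 to 32.7 FPKM, against 6.43 and 8.89 FPKM in the WT-labelled libraries (adjusted p 0.0324 and 0.0299). NDRG1, whose phosphorylation is used as a readout of SGK1, was listed at 0 in both resistant DOHH2 libraries, against 4.63 and 9.77 FPKM in idelalisib- and ibrutinib-resistant DAUDI (adjusted p 0.0264). In WT-labelled DAUDI and DOHH2 NDRG1 measured 6.82 and 13.7 FPKM. NEDD4L, a ubiquitin ligase that SGK1 inhibits, was at 8.17 and 7.83 FPKM in idelalisib- and ibrutinib-resistant DOHH2 against 1.39 and 1.90 FPKM in these states of DAUDI (adjusted p 0.0301). All of these lay below the 13.2 and 12.9 FPKM of NEDD4L in WT-labelled DAUDI and DOHH2.

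Of 16 other kinases that favour a basic motif like that of AKT, AKT1 and AKT2 among them, 14 were tested; 1 rose and 1 fell for idelalisib (9.19% and 10.4% of all genes) and 3 rose and 1 fell for ibrutinib (9.99% and 9.67%), with medians of 0.03 and 0.07 beside 0.09 and 0.14 over all genes. RPS6KA5, a kinase of the MAPK pathway, rose for ibrutinib (1.23 ± 0.25, adjusted p 0.0442) and was at 0.94 ± 0.25 for idelalisib (adjusted p 0.0748). Between the resistant lines 0 of the 14 passed (limma), beside 15.5% of all genes. At an unadjusted p under 0.05 was 1 of the 14, beside 4438 of all 12337 genes.

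**Figure D5:**
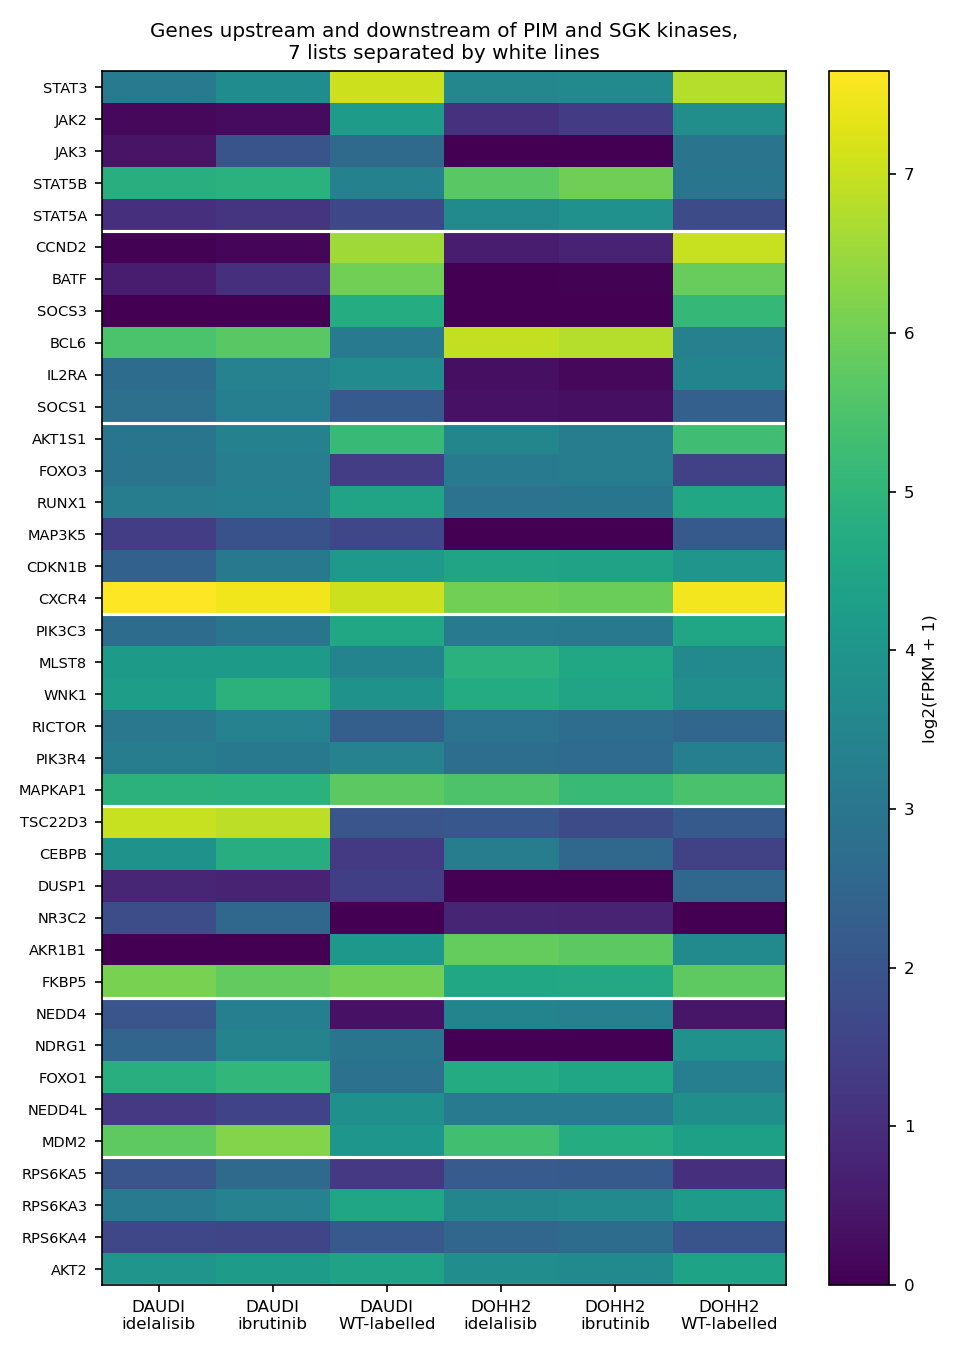
Levels, as log2(FPKM + 1) on a colour scale, of genes of the 7 lists (rows, lists separated by white lines, FOXO3 shown once) in the 6 libraries (columns). STAT3, CCND2, BATF and SOCS3 are bright in the WT-labelled columns alone, BCL6 is brighter in the 4 resistant columns, and TSC22D3 is bright in resistant DAUDI and AKR1B1 in resistant DOHH2.

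For each member the 3 genes with the most similar profile over the 6 libraries were taken from 9144 candidates, by the root mean square distance between log2 profiles centred on their means; this is a description of 6 libraries that share their lines and states. AEN, a nuclease of the p53 response, was nearest to PIM1 at a distance of 0.133, followed by ACP2 and ISOC2 up to 0.148. HSPBP1, a co-chaperone of HSP70, was nearest to PIM2 at 0.0746, followed by MVP, the major vault protein, and ZNF805. HNRNPA1, a splicing factor, was nearest to PIM3 at 0.0404, followed by CDC123 and the ubiquitin protease gene USP42. ZNF134, a zinc finger gene, was nearest to SGK1 at 0.232, followed by ZNF549 and DUSP3. IRF1, an interferon-induced transcription factor, was nearest to SGK3 at 0.139, followed by RAI14 and BFSP2. IRF1 measured 9.36, 16.3 and 1.32 FPKM in idelalisib-resistant, ibrutinib-resistant and WT-labelled DAUDI, and 2.38, 1.99 and 1.99 FPKM in these states of DOHH2, with both resistant DAUDI libraries above the rest as for SGK3.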

How the data were processed

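FPKM per isoform were made by the authors; the submitters' processing notes name bcl2fastq, cutadapt, TopHat2 and Cufflinks, with hg19 as build and versions not given. Per the labels' protocols, a directional mRNA kit was used. Coverage, a signal per isoform, is listed in the deposited files, as is the isoform length in nt, used for the 300 nt limit and the isoform lengths given. FPKM of 43490 isoforms were summed by symbol (23844 genes), leaving out 528 isoforms without a name and 10 genes with a failed estimate. The deposited FPKM bounds were not used; 15 of 60 member isoform values lie outside their own bounds.

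log2(FPKM + 1) was taken for genes at 1 FPKM or more in at least 1 library. The line given by the labels was used as the block. Deviations of a line correlated at 0.762 between idelalisib and ibrutinib, but not between the resistant and WT-labelled states, at -0.01 between idelalisib and WT, and -0.06 between ibrutinib and WT. limma 3.58.1 (R 4.3.3) was run with trend, two-sided, with 2 residual and 2.00 prior degrees of freedom (1 and 1.93 for the resistant lines). It was also run on libraries simulated with independent noise. The data here are not built that way, so that run gives no support to the p-values. Nothing says that cultures of a state are replicates; the fit takes the lines as such, and p-values measure only the spread between these samples.

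Members, lists, tests and settings were chosen with earlier results of these data known. Named genes are the members, SGK2, the readthrough, AKT1, AKT2, up to 4 genes per list with the largest difference between resistant and WT-labelled means and 2 between resistant lines, the 3 nearest genes per member, and cell markers; some are left out of the text, and a few items are not reported here. Motifs were searched in RefSeq promoters (GRCh38.p14), of which 4 matched members are given. Other settings were pseudocounts of 0.1 and 5, no filter or 5 FPKM, other scalings, the top isoform, no block, no trend, and leaving out each library.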

Additional observations from a re-analysis of the deposited data

Results flagged for a closer look

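PIM1 and SGK3 differed in opposite directions between the drugs in the lines. The difference of ibrutinib- from idelalisib-resistant cells on the log2 scale was 0.38 for PIM1 in DAUDI and -0.44 in DOHH2. For SGK3 it was 0.66 in DAUDI and -0.45 in DOHH2. The difference between the lines was not tested, since each value comes from 1 library per group. SGK3 in DOHH2 rests on 7.39e-05 FPKM in ibrutinib-resistant and 0.367 FPKM in idelalisib-resistant cells, and the sum with its readthrough was 1.97 and 2.16 FPKM in these cells.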

How the results depend on the processing

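No member value past its threshold changed direction under any setting tried. Median-of-ratios scaling moved the median difference of all genes to -0.03 for idelalisib and -0.02 for ibrutinib, beside 0.09 and 0.14, and with it PIM3 was at 0.61 for idelalisib (adjusted p 0.0595, the call lost) and 0.44 for ibrutinib (adjusted p 0.110). With no filter, 1 of 5 members, PIM3, passed for idelalisib and 1, again PIM3, for ibrutinib against WT-labelled cells, PIM2 and SGK1 being lost in both, with 1403 genes called in either contrast; for resistant DOHH2 against DAUDI 0 members and 0 genes passed. In that contrast 1 member passed without a trend, and 0 members and 0 genes passed with all 6 libraries and state as block. With no replicate block, 3362 genes were called between the resistant lines and 3 between the drugs. The drugs differed in 0 genes with no filter and in 2 with 5 FPKM as filter. With a pseudocount of 5, genes differing by 1 numbered 1825 and 2185 in idelalisib- and ibrutinib-resistant DAUDI and 1938 and 1841 in DOHH2 against WT-labelled cells, 177 and 70 between the drugs in DAUDI and DOHH2, and 85 between WT-labelled libraries. With a pseudocount of 0.1 the last 3 were 817, 350 and 295, and SGK3 was 1 member past 1 between the drugs in DOHH2 (-2.22) and was also past 1 in idelalisib-resistant against WT-labelled DOHH2 (2.22). Leaving out a library gave 0 to 2 members in each contrast with WT-labelled cells and between resistant lines and 0 to 0 between the drugs; genes called ranged over 0 to 2860 for idelalisib, 0 to 2926 for ibrutinib, 0 to 0 between the drugs and 742 to 2985 between resistant lines. The cause was not tested. SGK3 fell short of 1 in idelalisib-resistant DAUDI with a pseudocount of 5 (0.71), and PIM1 reached -1.01 there with median-of-ratios scaling. Among settings other than leaving out a library, 15 tested member values lost the threshold and 6 gained it, while 184 stayed on their side; PIM3 for idelalisib ranged from adjusted p 0.0288 to 0.0595. Depth is unknown and the deposited FPKM bounds were not used, so the low SGK1 and SGK3 values are given without a bound. Each group is 1 library. What sets the WT-labelled libraries apart from their own lines cannot be told apart from resistance in these contrasts.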
